A study of Mus musculus with 16 samples.

Results

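The transcripts of 10 genes known from fat cells were followed in whole adrenal glands of 16 mice by bulk RNA sequencing. The genes were taken by their symbols from the 51912 listed in the count files, and all 10 were found and passed the expression filter, as did 16654 genes in all. Of these, 5 are shared by white and brown fat (Adipoq, Plin1, Plin4, Cfd and Fabp4), 2 mark white fat (Lep and Retn) and 3 mark brown fat (Ucp1, Cidea and Elovl3). They were chosen by their counts per mouse, since replicate 1 of the males given anti-CD115 had stood out for fat transcripts. The excess of that mouse, and every difference of the 10 members between anti-CD115 and isotype mice, is therefore given as a description without a test. For genes outside the members, calls in this contrast are given below.

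The mice were C57BL/6J wild-type animals aged 7 weeks, in 4 groups of 4, namely males and females that were given anti-CD115 or isotype. Single mice are named here by group and replicate number (anti-CD115 male 1). All received 2 intraperitoneal doses of 500 µg of antibody (Ab), 2 days apart, either AFS98, which blocks CSF1R (CD115), the growth factor receptor on which macrophages depend, or the isotype control 2A3. Glands were taken 16 h after the second of these, and both glands of a mouse went into 1 library. The treatment protocol of the labels also mentions cold exposure, which neither the titles nor the treatments of these samples name, and the mice were taken as not exposed. Removal of the fat around the gland is stated in the study for glands prepared for flow cytometry, and was not stated for these libraries in the sources used here. The libraries held between 23196317 and 26314672 counts, where 3 counts, the floor used here, stood for 0.108 to 0.121 CPM (a count relative to the TMM-normalized size of its library) in 15 mice and for 0.151 in anti-CD115 male 1. Library numbers ran from 1 to 10 for anti-CD115 and from 11 to 19 for isotype mice, so library order and treatment cannot be told apart.

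White fat stores triglyceride in a single large droplet and secretes hormones, whereas brown fat holds many small droplets and mitochondria and burns fuel to make heat. Adiponectin (Adipoq), adipsin (Cfd) and the fatty acid carrier Fabp4 are made by both, as are perilipins, which coat lipid droplets. Leptin (Lep) and resistin (Retn) are hormones of white adipocytes. UCP1 uncouples brown fat mitochondria, and Cidea and the fatty acid elongase Elovl3 are typical of the same cells. The adrenal gland lies in the fat above the kidney, and its cortex stores cholesterol esters in droplets of its own. In bulk samples, more fat cells and more RNA per fat cell cannot be told apart, nor can fat attached to the gland and fat cells within it.

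The sequences just upstream of 3 members are shown, a shared, a white and a brown gene whose levels are given mouse by mouse below. They are the 250 bases before the RefSeq start site on GRCm38.p6, 5′ to 3′ on the plus strand, where capitals mark a match to CCAAT (or its reverse complement) for Adipoq, at chr16:23146286-23146535, to TTGCGCAA, a palindrome bound by C/EBP factors, for Lep, at chr6:29059971-29060220, and to AGGTCA, the core element of nuclear receptor sites, for Ucp1, at chr8:83290098-83290347.
Adipoq: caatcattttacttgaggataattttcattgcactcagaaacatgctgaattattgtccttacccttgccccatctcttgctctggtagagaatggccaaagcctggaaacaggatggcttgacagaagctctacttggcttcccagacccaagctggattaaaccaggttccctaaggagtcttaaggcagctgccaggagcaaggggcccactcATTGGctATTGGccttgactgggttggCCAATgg
Lep: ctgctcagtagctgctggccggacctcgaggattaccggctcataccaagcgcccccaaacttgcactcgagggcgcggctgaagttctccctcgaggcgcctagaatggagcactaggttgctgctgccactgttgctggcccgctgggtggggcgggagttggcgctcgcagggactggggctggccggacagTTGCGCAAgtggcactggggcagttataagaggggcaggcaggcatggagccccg
Ucp1: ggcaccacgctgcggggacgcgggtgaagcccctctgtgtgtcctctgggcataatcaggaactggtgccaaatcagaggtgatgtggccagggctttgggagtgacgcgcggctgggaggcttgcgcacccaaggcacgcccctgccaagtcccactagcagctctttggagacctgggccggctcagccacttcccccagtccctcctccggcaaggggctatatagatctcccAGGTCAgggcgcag

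A promoter was found in the RefSeq table for 7 of the 10 members (Adipoq, Plin1, Plin4, Cfd, Lep, Retn and Ucp1). On both strands of this window, CCAAT matched in 2 of them (Adipoq and Plin4) and in 33.8% of 32851 promoters. The letters TTGCGCAA matched in Lep alone among the 7, and in 0.164% of all promoters. AGGTCA matched in Ucp1 alone among the 7, and in 14% of all. Of the other motifs searched, TATATA was found in Ucp1 (5.25% of all promoters) and GGGCGG in Lep (32.7%). TATAAA (12.4% of all) matched in none of the 7. The matches are a description of letters in the window and were not tested as sites.

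Per unit of transcript length, adipsin was the most abundant of the 10 members. Its median over the 16 mice was 413 TPM (counts per exonic length, scaled to the same total in every library), with a range of 142.5 to 2422. Plin1 followed at 91.9 (66.1 to 127), then Fabp4 at 79.9 (36.8 to 578) and Adipoq at 55.1 (17.6 to 328). The Fabp4 value is understated, as the annotation lists 4489 exonic bases for a gene that spans 4489 bases, introns included. Retn was at 37.1 TPM (10.6 to 207), Cidea at 19.8 (0.252 to 415), Ucp1 at 14.6 (0.239 to 325) and Plin4 at 10.7 (7.48 to 18.2). The least abundant members were Lep at 1.51 TPM (0.0874 to 10.6) and Elovl3 at 0.717 (0 to 10.9). The ranges of Cfd and Plin1 did not meet, whereas all other neighbours in this order had overlapping ranges.

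Adipoq (chr16:23146536-23158028, plus strand of GRCm38) was at 12.2, 51.7, 9.50 and 37.1 TMM-normalized CPM in isotype males 1 to 4, and at 249.7, 26, 21.1 and 49.2 in anti-CD115 males 1 to 4. In females it was at 62.5, 10.3, 32 and 46.6 CPM in isotype mice and at 28.3, 10.4, 60.4 and 30.0 in anti-CD115 mice. Anti-CD115 male 1 thus stood apart from 15 mice whose levels ran from 9.50 to 62.5 CPM and whose 4 groups overlapped. Cfd (chr10:79890853-79892655, plus strand) was at 1230.5 CPM in that mouse, 8.22 times the median of the other 15 (149.6 CPM, range 52.1 to 422). Fabp4 (chr3:10204088-10208576, minus strand) was at 1428 CPM, 10.4 times the median of the others (138 CPM, range 64.5 to 255). Adipoq itself was 8.33 times the median of the other 15 mice.

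The perilipins moved far less. Plin1 (chr7:79720218-79732903, minus strand) was at 325 CPM in anti-CD115 male 1, 2.03 times the median of 159.8 CPM in the other 15 mice, which lay between 123 and 199 CPM. Its coefficient of variation (SD over mean) over those 15 mice was 13.4%, against 56.2% for Adipoq and 62.0% for Cfd. Plin4 (chr17:56100591-56109803, minus strand) was at 57.9 CPM, 2.41 times a median of 24.0 CPM, with a coefficient of variation of 21.3%. In isotype female 2, where Adipoq was at 10.3 CPM, Plin1 was still at 137 CPM and Plin4 at 24.0. The 4 highest of the other 15 mice for Plin4 (isotype males 2 and 4 and isotype females 1 and 4) were all among the 6 highest for Adipoq. The rest of those 6 were anti-CD115 female 3 and anti-CD115 male 4. Plin4 was at 26.9 CPM in the former and at 16.9, the lowest of all mice, in the latter.

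The white fat hormones were also highest in that mouse. Retn (chr8:3655770-3660110, plus strand) was at 9.57, 30.0, 6.51 and 28.4 CPM in isotype males and at 180.4, 22.1, 12.4 and 34.7 in anti-CD115 males. It was at 48.9, 9.49, 21.9 and 22.6 CPM in isotype females and at 27.5, 11, 49.4 and 21.6 in anti-CD115 females. The order of the mice was close to that for Adipoq, with the same mouse on top and the same mouse, isotype male 3, at the bottom. Lep (chr6:29060220-29073877, plus strand) was scarcer, at 0.973, 6.69, 1.33 and 4.23 CPM in isotype males and 19.6, 3.47, 1.16 and 1.71 in anti-CD115 males. In females it was at 3.99, 0.278, 4.91 and 3.23 CPM in isotype mice and 2.14, 0.113, 1.99 and 0.434 in anti-CD115 mice. The lowest of these, in anti-CD115 female 2, rests on 3 counts, which is the floor.

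The brown fat genes had the widest range of all. Ucp1 (chr8:83290352-83298452, plus strand) was at 8.45, 16.2, 2.04 and 8.65 CPM in isotype males and at 293, 2.29, 3.44 and 56.9 in anti-CD115 males. It was at 42.3, 0.159, 0.157 and 38.2 CPM in isotype females and at 10.8, 17.8, 1.67 and 14.7 in anti-CD115 females. Isotype females thus fell into a high and a low pair, and the low pair, replicates 2 and 3, held 4 counts of Ucp1 each. Leaving out anti-CD115 male 1, the highest mouse was still 362 times the lowest for Ucp1, against 6.58 times for Adipoq. Cidea, a lipid droplet protein, was at 266 CPM in anti-CD115 male 1, 28.9 times the median of the other 15 mice (9.20 CPM, range 0.119 to 32.1). Ucp1 was 33.9 times the median of the others there.

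Elovl3 (chr19:46131897-46135307, plus strand) had few counts. It was at 0.195, 5.89, 0.227 and 0.465 CPM in isotype males and at 6.60, 0.0739, 0.120 and 1.15 in anti-CD115 males. In females it was at 2.69, 0, 0 and 0.570 CPM in isotype mice and at 0.766, 0.678, 0.398 and 0.355 in anti-CD115 mice. Isotype male 2, with 162 counts, was close to anti-CD115 male 1, with 131 counts, although its Ucp1 was at 16.2 CPM against 293. In 4 mice Elovl3 had 3 counts or fewer, which is at or under the floor.

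**Figure D1:**
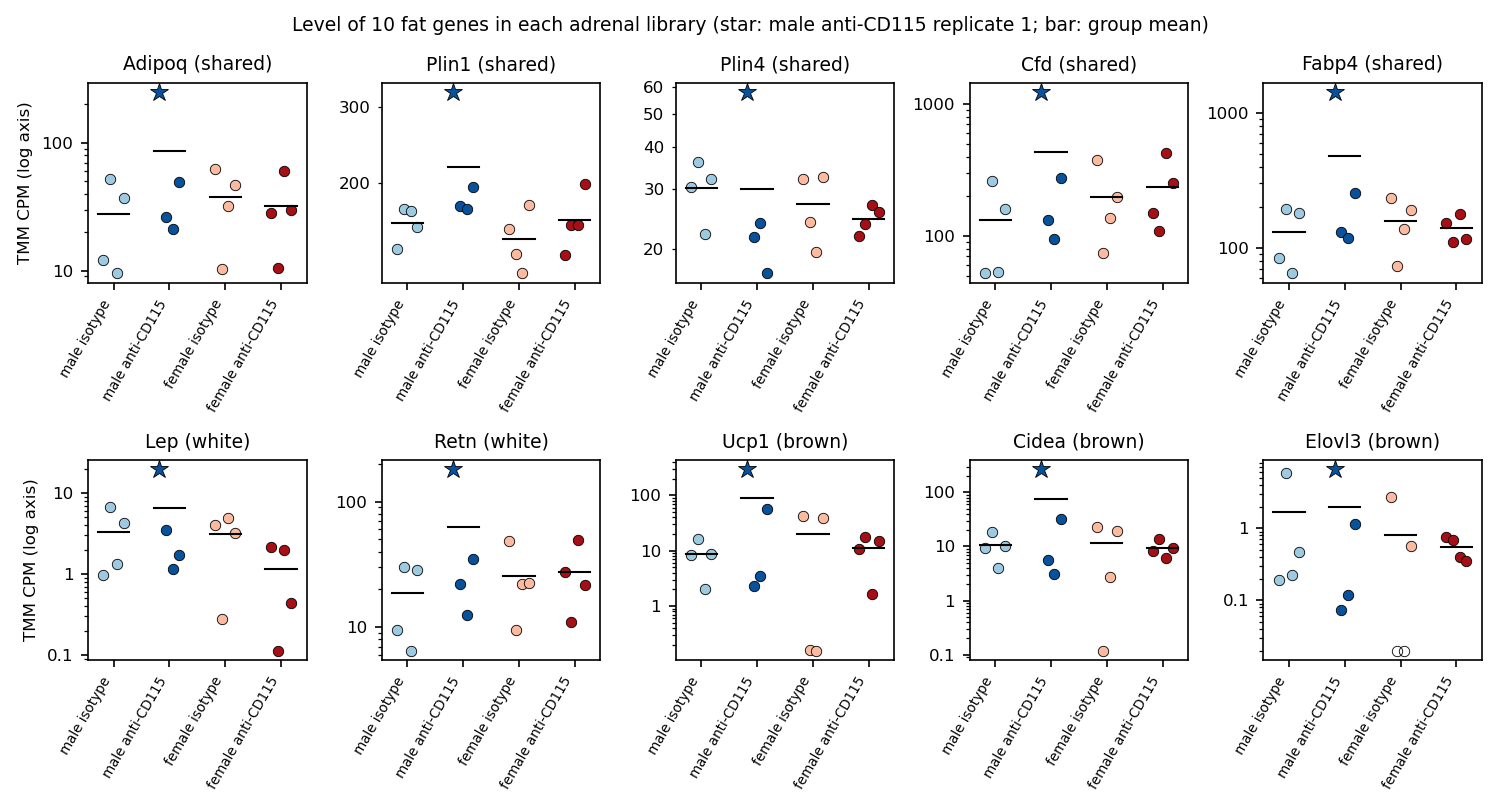
TMM-normalized CPM (log axis, a scale of its own in each panel) of the 10 members in each mouse, by group, with the group mean as a bar and anti-CD115 male 1 as a star. Open circles mark 0 counts and are drawn at the bottom of the axis. The star is the highest point in all 10 panels, and the isotype females split into a high and a low pair for Ucp1.

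Summed by kind, the 5 shared members came to 3292 CPM in anti-CD115 male 1 and to 318 to 865 CPM in the other 15 mice (median 489). The 2 white members came to 200.1 CPM against 7.84 to 52.9 (median 25.9). Of the 200.1 CPM, Retn held 180.4 and Lep 19.6. The white sum was therefore mostly Retn, which followed Adipoq, a shared member, across mice (below). The 3 brown members came to 566 CPM against 0.278 to 90.1 (median 19.2). The excess over the median was therefore 6.73 times for the shared, 7.74 times for the white and 29.4 times for the brown members. Together the 10 members took 0.347% of all counts in this library and 0.0317% to 0.104% in the others.

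Since all members of a library share its depth, the kinds of fat transcript were also compared within each library. Of the counts of Retn and Adipoq together, the share of Retn was between 32.7% and 51.4% in the other 15 mice and 41.9% in anti-CD115 male 1. The other white member varied more, as the share of Lep in the counts of Lep and Adipoq together was between 1.08% and 13.3% in the 15 mice and 7.29% in anti-CD115 male 1. The share of Ucp1 in the counts of Ucp1 and Adipoq together was between 0.488% and 63.2% in the 15 mice, and 54.0% in anti-CD115 male 1 (95% Wilson interval 53.0% to 54.9%). Intervals here cover counting error only. In isotype females 2 and 3 the Ucp1 share was 1.52% (0.593% to 3.84%) and 0.488% (0.190% to 1.25%). In replicates 1 and 4 of the same group it was 40.4% (38.6% to 42.2%) and 45% (43.0% to 47.1%). The 4 isotype females thus split into a pair with a low and a pair with a high Ucp1 share.

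The extremes were both females. Anti-CD115 female 2 had the highest Ucp1 share of the 16 mice, 63.2% (59.6% to 66.5%), on 473 counts of Ucp1 and 276 of Adipoq, and it had the lowest Lep level. It also had the highest Retn share, 51.4%, and the lowest Lep share, 1.08%. The 2 white members thus went opposite ways in this mouse. Isotype female 3 held 815 counts of Adipoq, 558 of Retn and 125 of Lep, but 4 of Ucp1 and 0 of Elovl3, where 0 counts allow up to 0.118 CPM. Cidea was not at the floor in this mouse, with 69 counts. In isotype female 2 all brown members were near the floor, with 4 counts of Ucp1, 3 of Cidea and 0 of Elovl3, while Adipoq had 259. Anti-CD115 female 3 combined 60.4 CPM of Adipoq and 49.4 of Retn, at or close to the top of the 15 mice, with 1.67 CPM of Ucp1. Anti-CD115 male 4, second for Ucp1 at 56.9 CPM, had a Ucp1 share of 53.6% (51.8% to 55.5%), near that of replicate 1.

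**Figure D2:**
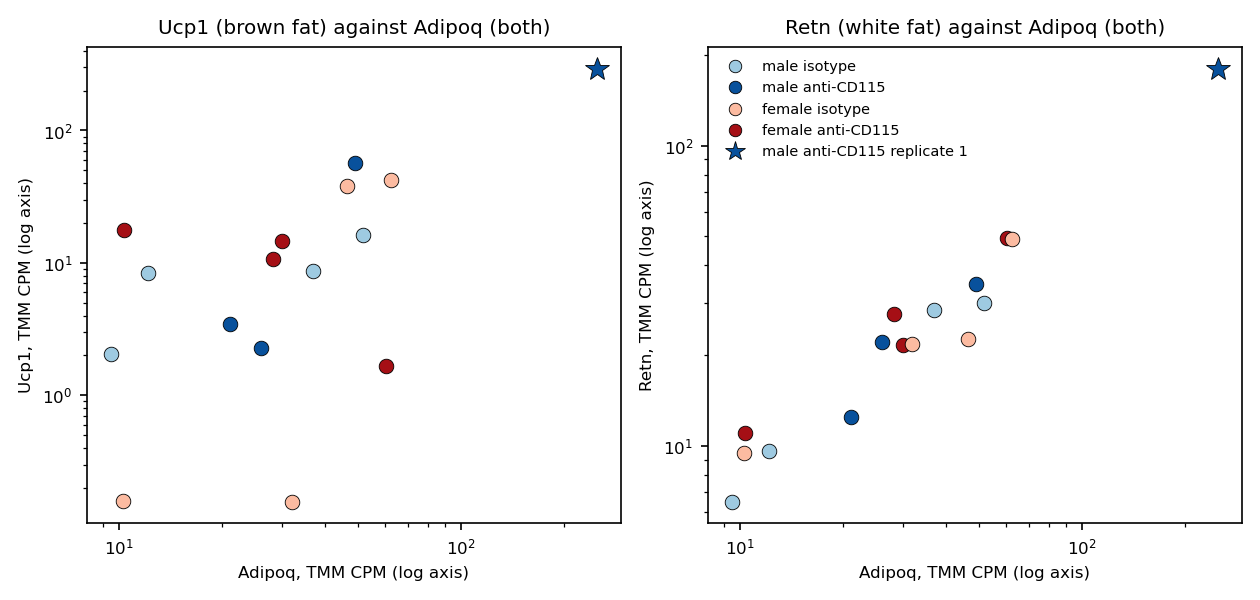
TMM-normalized CPM of Ucp1 (left) and Retn (right) against Adipoq in each of the 16 mice (log axes, colours by group, star for anti-CD115 male 1). Retn followed Adipoq over its whole range, whereas mice with the same Adipoq level differed widely in Ucp1, as did isotype female 3 (0.157 CPM) and anti-CD115 female 4 (14.7 CPM) near 30.0 CPM of Adipoq.

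Correlations of log2 CPM across mice were computed after the mean of each group was subtracted. They are given as a description, in which the genes of a mouse share its library and depth, and without anti-CD115 male 1, so over 15 mice. Adipoq correlated with Retn at r = 0.96, with Cfd at 0.95, with Fabp4 at 0.93 and with Lep at 0.84. It correlated with Ucp1 at 0.46, with Cidea at 0.64 and with Elovl3 at 0.65. The 3 brown members correlated with each other at 0.77 to 0.88, and with the 2 white members at 0.17 to 0.64. Fabp4, a shared member, correlated with Elovl3 at 0.78 and with Cidea at 0.77, at the lower end of the range among brown members, and Cfd with Elovl3 at 0.73. Of the 16 other brown fat genes described further on, 9 correlated more closely with Adipoq than with Ucp1 (median r of 0.59 and 0.46 over the list). Plin1 and Plin4 correlated with Adipoq at 0.33 and 0.46. With all 16 mice, Adipoq and Ucp1 correlated at 0.60, Adipoq and Plin1 at 0.63, and Adipoq and Plin4 at 0.71.

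The 10 genes outside the members whose pattern was most like that of Adipoq over the 16 mice were Car3, Ces1d, Cidec, Cdo1, Abcd2, Aoc3, Lpl, Cyp2e1, Cav1 and Scd1, with r from 0.96 to 0.99. Of these 10, 8 were also among the nearest 10 without anti-CD115 male 1. Car3, the carbonic anhydrase abundant in adipocytes, was nearest in both cases (r = 0.99 in each) and was at 2078 CPM in that mouse against 99.0 to 569 in the others. For Ucp1 the nearest 10 were Gm10032, Acss1, Mapk9, Ric1, Otop1, Sik2, Gm14403, Pxdn, Fam210a and Pikfyve, with r from 0.83 to 0.89. Of these, 2 (Gm10032 and Acss1) were also among the nearest 10 without that mouse, so the list for Ucp1 changed with that mouse. Otop1, a proton channel of brown fat, was at 28.1 CPM in anti-CD115 male 1 and at 0.0397 to 4.02 in the other mice.

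Other genes of fat were read from 4 lists that hold none of the members, of which 56 of 62 genes passed the filter. Of these 56, 45 had their highest level in anti-CD115 male 1, as did 15.5% of all genes tested, and 44 were over 2 times the median of the other 15 mice there, as were 7.07% of all genes tested. Among 20 genes of adipocytes in general, 18 were over 2 times that median, with a median ratio of 7.40. Car3, Pnpla2 (the lipase that starts triglyceride breakdown), Gpd1 (which makes the glycerol backbone) and Cd36 (a fatty acid transporter) were the most abundant per length, at ratios between 1.67 for Cd36 and 7.81 for Car3. The exceptions were Plin5 and Cd36, each at under 2 times.

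Of 16 tested brown fat genes, 13 were over 2 times the median of the others in anti-CD115 male 1, with a median ratio of 5.10. Cox8b, a muscle-type and brown fat subunit of cytochrome oxidase, was at 206 CPM against 6.23 to 35.3, and the amino acid transporter Slc36a2 was at 124 CPM against 3.65 to 28.7. Cox7a1 was at 40.8 CPM against 3.45 to 12.0, and Fabp3 at 16.4 against 1.23 to 6.51. The regulators of brown fat development in the list differed among themselves in this library. Ebf2, a transcription factor of brown fat precursors, was highest there, at 3.32 CPM against 0.0377 to 1.98, which was 3.91 times the median of the others. Zic1 had 0 counts there, which allows up to 0.151 CPM, and its highest was 9 counts, in isotype male 2. Lhx8 had 6 counts, the most of any mouse. Prdm16, a regulator of brown fat fate, was at 18.7 CPM, within the range of the others (10.3 to 23.8).

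Of the 5 tested genes of the white fat list, 2 (Slc7a10 and Hoxc9) were over 2 times the median of the others, and 3 had their highest level in this mouse. Slc7a10, an amino acid transporter of white adipocytes, was at 7.30 CPM against 0.189 to 2.52, and it correlated with Adipoq at r = 0.92 over the other 15 mice. The rest of the list correlated less closely with Adipoq, Npr3 at 0.70, Hoxc8 at 0.38, Tcf21 at -0.03 and Hoxc9 at -0.25. Hoxc8, a positional homeobox gene, was at 46.1 CPM against 25.1 to 40. Tcf21 and Npr3, which stromal and other cells also express, were at 17.5 and 23.6 CPM, inside the ranges of 14.8 to 25.4 and 13.9 to 41.8 of the others. Of 15 genes of fatty acid and triglyceride synthesis, 11 were over 2 times the median. Fasn, the fatty acid synthase, was at 4803 CPM against 366 to 2220, and the desaturase Scd1 was at 7656 against 385 to 3171. Acly was at 1828 CPM against 1039 to 1681, and Me1, which supplies NADPH, was at 2781 CPM, within the range of the others (1224 to 2902).

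**Figure D3:**
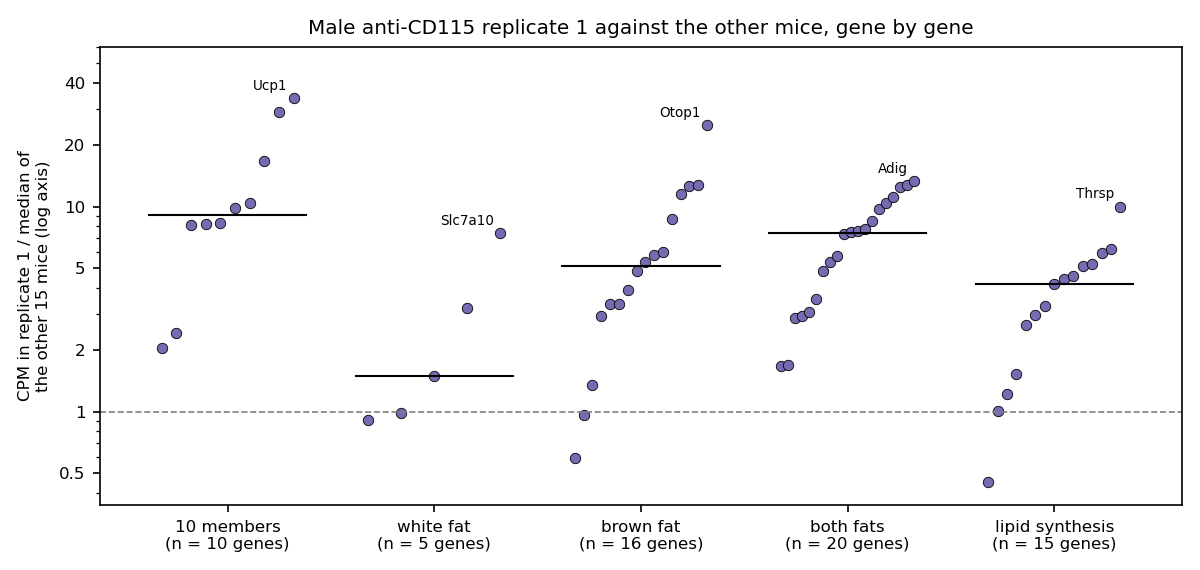
Ratio of the CPM in anti-CD115 male 1 to the median of the other 15 mice (log axis) for the 10 members and for the tested genes of 4 other fat lists, each point a gene, with the list median as a bar and the top gene named. The medians are 7.40 for genes of both fats, 5.10 for brown fat, 4.20 for lipid synthesis and 1.49 for white fat.

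Markers of other cells were read in the same libraries. The adrenal cortex list (10 of 10 genes tested, with Cyp21a1, the steroid 21-hydroxylase, the most abundant) summed to 58404 CPM in anti-CD115 male 1, where the other mice ranged from 52645 to 73745. The medulla list (8 of 8 tested, Chgb the most abundant) summed to 19526 CPM, where the others ranged from 5933 to 22476. Fibroblasts of fat and other stroma (7 of 7 tested, Dcn the most abundant) summed to 415 CPM, close to the median of 425 in the others and the tenth of the 16 mice. Endothelial genes (6 of 6 tested, Plvap the most abundant) summed to 731 CPM, the fifteenth of 16, and mesothelial genes (6 of 7 tested, Lrrn4 the most abundant) to 16.2 CPM, against 9.08 to 23.2. Red blood cell genes (5 of 5 tested, Hba-a1 the most abundant) summed to 718 CPM against 225 to 768. Mitochondrial genes took 22.8% of its counts, against 11.8% to 15.6% in the others, and their part in the result was not tested.

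Kidney transcripts were at or near 0 in all 16 libraries. Of 8 kidney genes 0 were tested, Umod, Slc34a1 and Kap had 0 counts in every mouse, and the sum of the list was at most 0.739 CPM. Muscle and lymphoid transcripts were low but measured in every mouse. The muscle list (2 of 8 tested, Mylpf the most abundant) summed to 1.01 CPM in anti-CD115 male 1 and to 1.02 to 3.91 in the others. The lymphoid list (4 of 8 tested, Cd79a the most abundant) summed to 3.27 CPM there and to 1.33 to 3.98 in the others. Macrophage genes (11 of 11 tested, with Lyz2 the most abundant) followed the labels in every mouse. They summed to 676 ± 61.9 CPM in isotype and 125 ± 16.9 in anti-CD115 males, and to 582 ± 95.1 in isotype and 111 ± 29.1 in anti-CD115 females (SD, n = 4). In males 11 and in females 10 of the 11 were called lower after anti-CD115, where 3.06% and 1.81% of all genes were. Anti-CD115 male 1, at 127 CPM, lay within the range of its group (105 to 146).

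The comparison of anti-CD115 with isotype males was then made with and without replicate 1. With all mice, 9 of the 10 members had a higher fitted level after anti-CD115, with a median log2 fold change of 1.67, where the median of all tested genes was 0.01. The groups overlapped for all but Plin1 (they did not overlap for 9.64% of all genes). Without replicate 1, the median of the members was 0.26 and 7 of 10 were higher, so the excess of the anti-CD115 males rested for the most part on 1 of its 4 mice. Both medians describe genes that were chosen with this contrast known.

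For the shared members, Adipoq was at 86.5 ± 109 CPM in anti-CD115 and 27.6 ± 20.3 in isotype males (SD, n = 4), a log2 fold change of 1.64 ± 0.89 (SE) that became 0.22 ± 0.74 without replicate 1. The log2 fold change of Cfd went from 1.71 ± 0.88 to 0.34 ± 0.73, and that of Fabp4 from 1.88 ± 0.75 to 0.36 ± 0.47. Plin1 was at 218 ± 72.2 CPM against 161 ± 15.5, a log2 fold change of 0.44 ± 0.18, and at 182 ± 11.7 CPM (n = 3) and 0.17 ± 0.13 without replicate 1. It was the only member whose groups did not overlap, as was so for 9.64% of all genes. Without replicate 1 its groups did not overlap either, with 3 against 4 mice. No share of all genes is given here for groups of that size, so this is not read as a result. Plin4 went from -0.02 ± 0.32 to -0.54 ± 0.18.

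Of the white members in males, Retn had a log2 fold change of 1.73 ± 0.86 with and 0.31 ± 0.69 without replicate 1, and Lep one of 0.88 ± 0.93 with and -0.65 ± 0.82 without it. Whether the members differed from each other in this was not tested. For the brown members, Ucp1 was at 88.9 ± 138 CPM in anti-CD115 and 8.83 ± 5.78 in isotype males. Its log2 fold change was 3.32 ± 1.55, and 1.24 ± 1.39 without replicate 1, where replicate 4 at 56.9 CPM was the remaining high mouse beside 2.29 and 3.44 CPM. Cidea went from 2.84 ± 1.27 to 0.37 ± 0.99, and Elovl3 from 0.03 ± 1.25 to -1.93 ± 1.5. When the mean log2 CPM of the 20 general adipocyte genes was added to the model for all 16 mice, the log2 fold changes in males were 0.11 ± 0.25 for Adipoq, 0.19 ± 0.26 for Retn, 0.19 ± 0.12 for Plin1, 0.42 ± 1.20 for Ucp1 and -2.85 ± 0.87 for Elovl3. In that fit Cfd was at 0.22 ± 0.20 and Fabp4 at 0.34 ± 0.16, while Lep was at -0.61 ± 0.58, Cidea at -0.12 ± 0.75 and Plin4 at -0.45 ± 0.18.

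In females, 3 members were higher and 7 lower after anti-CD115 (median log2 fold change -0.21), and the groups overlapped for all 10 (they did not overlap for 7.54% of all genes). Adipoq was at 32.3 ± 20.7 CPM in anti-CD115 and 37.9 ± 22.2 in isotype mice, a log2 fold change of -0.23 ± 0.88. Ucp1 was at 11.2 ± 7.0 and 20.2 ± 23.2 CPM, a log2 fold change of -0.85 ± 1.49, and Lep at 1.17 ± 1.04 and 3.10 ± 2.00 CPM, one of -1.43 ± 1.18. Plin1 was at 164 ± 25.8 and 148 ± 23.7 CPM, one of 0.14 ± 0.18. This tally of directions depended on single mice and on the model. Without isotype female 1, 7 members were higher and 3 (Plin4, Lep and Ucp1) lower, with log2 fold changes of 0.11 for Adipoq, 0.06 for Fabp4, 0.29 for Cidea and 1.47 for Elovl3. Without anti-CD115 female 3, Cfd and Retn turned to -0.21 and -0.37. With the general adipocyte genes in the model, 5 members were higher and 5 lower (median 0.08), as Ucp1 turned to 0.37 ± 1.11 and Cidea to 0.58 ± 0.71. Whether the treatment difference of a member differed between the sexes was not tested.

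**Figure D4:**
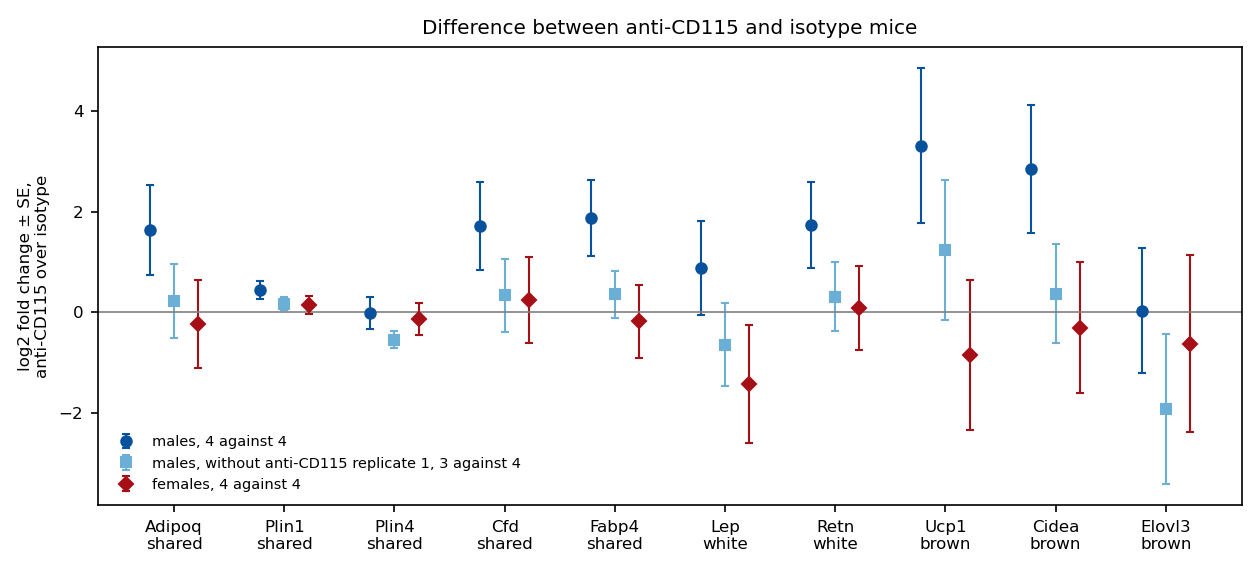
Log2 fold change (± SE of the edgeR fit) of anti-CD115 over isotype for the 10 members in males with all mice (circles), in males without anti-CD115 replicate 1 (squares) and in females (diamonds). In males Adipoq goes from 1.64 to 0.22 and Ucp1 from 3.32 to 1.24 without that mouse, while Plin1 and Plin4 stay within 1 of 0 in all 3.

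Over all genes, 692 (4.16%) were called in males with all mice and 550 without replicate 1 (3.26% of those tested), and 451 were called in both. Other mice moved this count further, as it was 367 without anti-CD115 male 3, 368 without isotype male 2 and 1053 without anti-CD115 male 2. Of the 183 genes called higher after anti-CD115, 74 were called without it, and of the 509 called lower, 377 were. Of the 56 other fat genes tested, 1 was called in males with all mice, and 6 were called by DESeq2, which called 1169 of all 16654 genes. An unadjusted edgeR p under 0.05 was found for 9 of the 56. No share of all genes is given here for this count, so it is not read as an excess. The gene called by edgeR was Prdm16, higher after anti-CD115 by 0.61 ± 0.16 on the log2 scale (adjusted p = 0.0318, edgeR quasi-likelihood test), at 21.9 ± 2.38 CPM against 14.4 ± 2.58 (SD, n = 4). Over the 15 mice its level correlated with that of Adipoq at -0.19 and with that of Ucp1 at -0.46. The call was lost with only the 8 mice compared and without isotype male 2, 3 or 4 or anti-CD115 male 3 or 4, where 0 of the fat genes were called. Without replicate 1 the log2 fold change of Prdm16 was 0.66 ± 0.16 (adjusted p = 0.0222, edgeR). Cd36 was then called lower, at -0.64 ± 0.13 (adjusted p = 0.00739, edgeR), whereas with all mice its log2 fold change was 0.19 ± 0.41 (adjusted p = 0.823, edgeR). In females 0 of the 56 were called by edgeR or DESeq2 (1.87% of all genes were by edgeR), and 0 had an unadjusted edgeR p under 0.05. These lists, too, were written with earlier results of the data known.

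Isotype females and isotype males were compared last, a contrast that the rule for choosing the members did not name. The isotype counts were, however, among the counts per mouse by which the members were chosen. The p-values of members given here are therefore not independent of that choice. Anti-CD115 male 1 is in neither group, but it enters the errors and p-values, which come from 1 model over all 16 mice. None of the 10 members was called, with adjusted p-values from 0.665 to 0.966 (edgeR quasi-likelihood test over all genes), 0 passed an unadjusted 0.05, 0 were called by DESeq2, and 18.9% of all genes were called. Adipoq was at 37.9 ± 22.2 CPM in females and 27.6 ± 20.3 in males, a log2 fold change of female over male of 0.46 ± 0.88. Ucp1 was at 20.2 ± 23.2 and 8.83 ± 5.78 CPM, one of 1.20 ± 1.52, and Lep at 3.10 ± 2.00 and 3.30 ± 2.69 CPM, one of -0.10 ± 0.99. Plin1, at 148 ± 23.7 and 161 ± 15.5 CPM, had the smallest error, with a log2 fold change of -0.12 ± 0.18. The groups overlapped for all 10 members (20.6% of all genes did not overlap), and no difference between the sexes was detected for any of the 10 at these errors.

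Of the other fat genes, 5 of 56 were called between isotype females and males, where 18.9% of all genes were. Their number depended on the fit. It was 12 with only the 8 mice compared, where 2821 of all 16037 genes tested were called. With the mean of the general adipocyte genes in the model it was 17 (3185 of all 16654). Without anti-CD115 male 1 it was 14 (3605 of all 16882). The lipid droplet protein Plin5 was lower in females than in males, at a log2 fold change of -1.76 ± 0.19 (14.9 ± 3.37 against 50.3 ± 3.68 CPM, adjusted p = 3.62e-06, edgeR), and so was Me1, at -0.89 ± 0.11 (adjusted p = 4.69e-06, edgeR). The natriuretic peptide receptor Npr3 was also lower in females, at -0.75 ± 0.15 (adjusted p = 0.000809, edgeR). Gpam, the first enzyme of triglyceride synthesis, was higher in females by 1.98 ± 0.27 (133 ± 40.8 against 33.8 ± 10.7 CPM, adjusted p = 0.00013, edgeR), and glycerol kinase Gk by 0.64 ± 0.18 (adjusted p = 0.0174, edgeR). None of these 5 was among the genes nearest to Adipoq. Over the 15 mice, Plin5, Gpam, Gk, Me1 and Npr3 correlated with it at -0.27, -0.05, 0.13, 0.29 and 0.70. Of the 14 called when anti-CD115 male 1 was left out of the fit, 9 were higher and 5 lower in females, and 21.4% of all genes were called. Among those added, named after their values were seen, were Cd36, at 1.05 ± 0.12 (adjusted p = 2.16e-06, edgeR), Agpat2, at 0.90 ± 0.13, and Lipe, at 0.41 ± 0.10. Also added as higher were Cebpa, at 0.93 ± 0.23, Acaca, at 1.21 ± 0.34, Dgat2, at 1.58 ± 0.47, and Cox7a1, at 0.74 ± 0.20. In the other direction were P2rx5, at -0.95 ± 0.33, and Lpin1, at -0.47 ± 0.12. The fit with the adipocyte genes in the model kept anti-CD115 male 1, and Cd36, Lipe and Cebpa are among the genes averaged there. In it Agpat2 (0.77 ± 0.26), Lipe (0.32 ± 0.18) and Cox7a1 (0.64 ± 0.33) were not called (adjusted p = 0.0564, 0.244 and 0.206, edgeR). With that mouse and without the adipocyte genes they were not called either (adjusted p = 0.331, 0.482 and 0.432, edgeR). These lost calls therefore cannot be assigned to the adipocyte genes. Cd36, Cebpa, Acaca, Dgat2, P2rx5 and Lpin1 were called.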

How the data were processed

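RNA of both adrenals of each of 16 mice was sequenced as stranded mRNA libraries, 1 library per mouse. The authors aligned read pairs with HISAT2 2.2.1 and deposited raw counts of fragments per gene from featureCounts 2.0.1 in reverse-stranded mode, without normalization. Their notes name build GRCm38. The study's methods name Ensembl release 84, while the file headers name release 89, whose gene models were used here. Replicates are separate mice, and groups come from the sample labels.

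The filter was that of edgeR 4.0.16 (filterByExpr, at least 10 counts per gene and 15 in total). After TMM normalization, 1 quasi-likelihood model (robust, legacy off, a mean for each group) was run over the 16 mice in R 4.3.3. Tests were two-sided with Benjamini-Hochberg adjustment over the 16654 genes tested, and genes with an adjusted p under 0.05 are called. SEs come from the fit. TMM-normalized CPM of anti-CD115 male 1 are scaled by its own factor, and the prior count of log2 CPM was 2. TPM were computed from counts and exonic lengths. DESeq2 1.42.0 was an alternative, as were other normalizations and filters, the replicate block, a fat score as covariate and each mouse left out. The pipeline was tested on simulated data.

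The members and gene lists were chosen with earlier results of these data known. By rule the text names all members, of each fat list the 4 genes of highest mean TPM and up to 4 called genes per contrast, of other lists the most abundant and up to 3 defining genes, and the 10 genes most correlated with Adipoq and with Ucp1. Otop1, Hoxc9, Zic1, Lhx8, Ebf2, Cd36 and Cox7a1 without that mouse, Agpat2, Lipe, Cebpa, Acaca, Dgat2, P2rx5 and Lpin1 were singled out after their values were seen. Promoter sequences and their build are from RefSeq.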

Additional observations from a re-analysis of the deposited data

Results flagged for a closer look

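Among 40 sets of 4 mice (10 members in 4 groups), 10 had a mouse whose gap to the nearest other mouse took more than 0.829 of the range of the group. About 1 in 20 sets of normally distributed values passes this limit by chance when sets are not chosen by their values. Here it was applied to untransformed CPM, whose distribution was not tested. The members were also chosen by these counts and share libraries, so the number passing is a description and no test. In 9 of the 10 it was male anti-CD115 replicate 1, at 249.7 CPM for Adipoq, 325 for Plin1, 57.9 for Plin4, 1230.5 for Cfd, 1428 for Fabp4, 19.6 for Lep, 180.4 for Retn, 266 for Cidea and 6.60 for Elovl3. Ucp1 at 293 CPM did not pass the limit, as replicate 4 of that group was at 56.9. The remaining set was Elovl3 in male isotype mice, where replicate 2 was at 5.89 CPM.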

How the results depend on the processing

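Without the mouse that was richest in fat transcripts, the count of genes called in males was 550, and over all 16 mice left out in turn it ranged from 367 (without male anti-CD115 replicate 3) to 1053 (without male anti-CD115 replicate 2). It was 368 without male isotype replicate 2, 1169 with the DESeq2 Wald test, 319 with only the 8 mice compared and 314 when log2 fold changes also had to reach 1 in size. In females the count of 311 was 183 with at least 10 counts in every mouse and 228 to 340 with a mouse left out. Female against male isotype gave 855 genes with the fold change limit and 2503 to 3605 with a mouse left out. Of the other fat genes, 6 were called in males by DESeq2, 2 with the replicate block, 2 with the fat score as a covariate, 0 with only the 8 mice compared or with the fold change limit, and 0 to 4 with a mouse left out, 0 without male isotype replicates 2, 3 or 4 or male anti-CD115 replicates 3 or 4, and 2 and 4 without male anti-CD115 replicates 1 and 2. In females 0 were called under every alternative run. In the isotype sex contrast the 5 became 12 with only the 8 mice compared, 17 with the fat score, 2 with the fold change limit, and 4 to 14 with a mouse left out, 14 being without male anti-CD115 replicate 1. The cause of these changes was not tested. No member was called in that contrast under any alternative run (0 of 10, or of the 6 members tested with at least 10 counts in every mouse). There, the sign of Cidea (0.12) turned to -0.44 with the replicate block and -0.72 with the fat score, and to -0.15, -0.47 and -0.27 without male isotype replicate 3 or female isotype replicates 1 or 4. Lep turned to 0.50, 0.03 and 0.28 without male isotype replicates 2 or 4 or female isotype replicate 2, Retn to -0.029 without female isotype replicate 1, and Elovl3 to 1.49 without male isotype replicate 2. With a mouse left out, the ranges were -0.39 to 0.50 for Lep, -0.029 to 0.78 for Retn, -0.47 to 0.54 for Cidea and -3.11 to 1.49 for Elovl3. For Ucp1 (1.20) the range was 0.57 to 1.66, and for Adipoq (0.46) it was 0.12 to 0.94. With the fat score Ucp1 was at 0.18 and Adipoq at 0.22. Elovl3 in males was 2.56 without male isotype replicate 2, and in females 1.47 without female isotype replicate 1. Mice with the same replicate number were not paired, as 5 of 24 such pairs had deviations that correlated above 0.1 (-0.17 to 0.38), and the replicate block changed no count by over 1.5 times other than the one given. It did lower log2 fold changes of members in males, to 2.18 for Ucp1, 0.98 for Adipoq, 1.07 for Cfd, 1.25 for Fabp4, 1.10 for Retn and 0.48 for Lep. Depth limited Elovl3 and, in single mice, Lep, Ucp1 and Cidea, which had from 0 to 7 counts in the lowest libraries.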
